A study of Homo sapiens with 6 samples.

Results

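Human embryonic stem cells of the WA09 line and the smooth muscle cells derived from them over 21 days were compared across all genes. The comparison used 4 of the series' 6 arrays, chosen by their sample titles: WA09-SMC rep1 and rep2 against WA09-hESC rep1 and rep2. WA09 (also called H9) is an established human embryonic stem cell line. The hESC arrays hold undifferentiated cells kept in StemPro, a defined medium. The SMC arrays hold the same line after 21 days in defined medium with 25 ng/ml Wnt3a, a Wnt ligand, and 50 ng/ml BMP4, a bone morphogenetic protein. The remaining 2 arrays hold day 4 nascent mesoderm cells labelled ISL1+ (INM) given the same 2 factors. They entered the estimate of spread, the choice of 1 probe set per gene and the background floor given below. They did not enter the difference itself. All groups come from 1 line, and the labels name no genetic change. Nothing in the labels states that replicates came from separate cultures. Each p-value therefore rests on spread between the 2 arrays of a label, pooled over the 3 groups, and that spread could be technical alone.

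Smooth muscle contracts when calcium and calmodulin activate myosin light chain kinase, and it relaxes when cyclic nucleotides lower calcium and restore the phosphatase that removes that phosphate. Its actin, calponin, transgelin and myosin heavy chain genes are driven by serum response factor with its partner myocardin. Smooth muscle cells are known to shift between a contractile state, rich in these proteins, and a synthetic state that proliferates and lays down matrix. Fibroblasts and myofibroblasts share much of that matrix programme, and pericytes share the receptors of mural cells.

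Each array gave a log2 signal for 18417 genes, and the 2 arrays of a group correlated at 0.994 for hESC and 0.995 for SMC. Between the arrays of a pair, 16 genes differed by over 1 log2 unit in hESC and 11 in SMC, against 700 in INM. A change is given below as the log2 difference SMC minus hESC, with its standard error (SE), and a gene was called at a Benjamini-Hochberg adjusted p under 0.05 in limma's fit over all genes. A fold is given only where both group means lie above a background floor of 5.04, the lowest array median of the probe sets without a gene name. Probes differ in response, so only differences within a gene are compared.

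By this rule 6859 genes were called, 37.2% of those tested: 3625 were higher in SMC (19.7%) and 3234 lower (17.6%). Over 1 log2 unit there were 1631 rises and 1128 falls, and over 4 units 78 rises and 29 falls. The median change of all genes was -0.05. Centring each array on its own median moved that median to 0.08, a shift of 0.13, and the calls to 4562 higher and 2303 lower, so that 66.5% of calls were rises against 52.9% as reported. The arrays of the 2 groups did not overlap for 75.3% of all genes, so absence of overlap alone says little. Leaving out hESC replicate 1 gave 2319 rises and 1815 falls, hESC replicate 2 gave 2485 and 1844, SMC replicate 1 gave 2281 and 1701, and SMC replicate 2 gave 2154 and 1649. Of the 6859 calls, 3373 held in all 4 of these fits, in which the lone array of a group is assumed to vary like the others. An exact permutation test of 2 against 2 arrays cannot go below a two-sided p of 0.333.

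The largest rises were in genes of the extracellular matrix, with 1 contractile gene among the top 5. LUM, a collagen-binding proteoglycan, read 3.65 and 3.6 in the hESC arrays and 12.90 and 12.77 in the SMC arrays, a rise of 9.21 ± 0.12 (adjusted p = 1.06e-06). MGP, an inhibitor of calcification made by vascular smooth muscle and cartilage, rose by 7.33 ± 0.12, DCN (decorin) by 6.85 ± 0.35 and LOX (lysyl oxidase, which crosslinks collagen and elastin) by 6.85 ± 0.3. For LUM, MGP and DCN the hESC arrays lay under the floor, so the sizes of their rises depend on a starting signal not shown above background. ACTA2, smooth muscle alpha actin, read 6.44 and 6.41 in the hESC arrays and 13.09 and 13.03 in the SMC arrays. Both SMC arrays stood far above both hESC arrays, a 99.5-fold rise (log2 6.64 ± 0.33, adjusted p = 4.02e-05). In bulk RNA, fewer cells of a type and less RNA per cell cannot be told apart, and this holds for every level below.

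**Figure D1:**
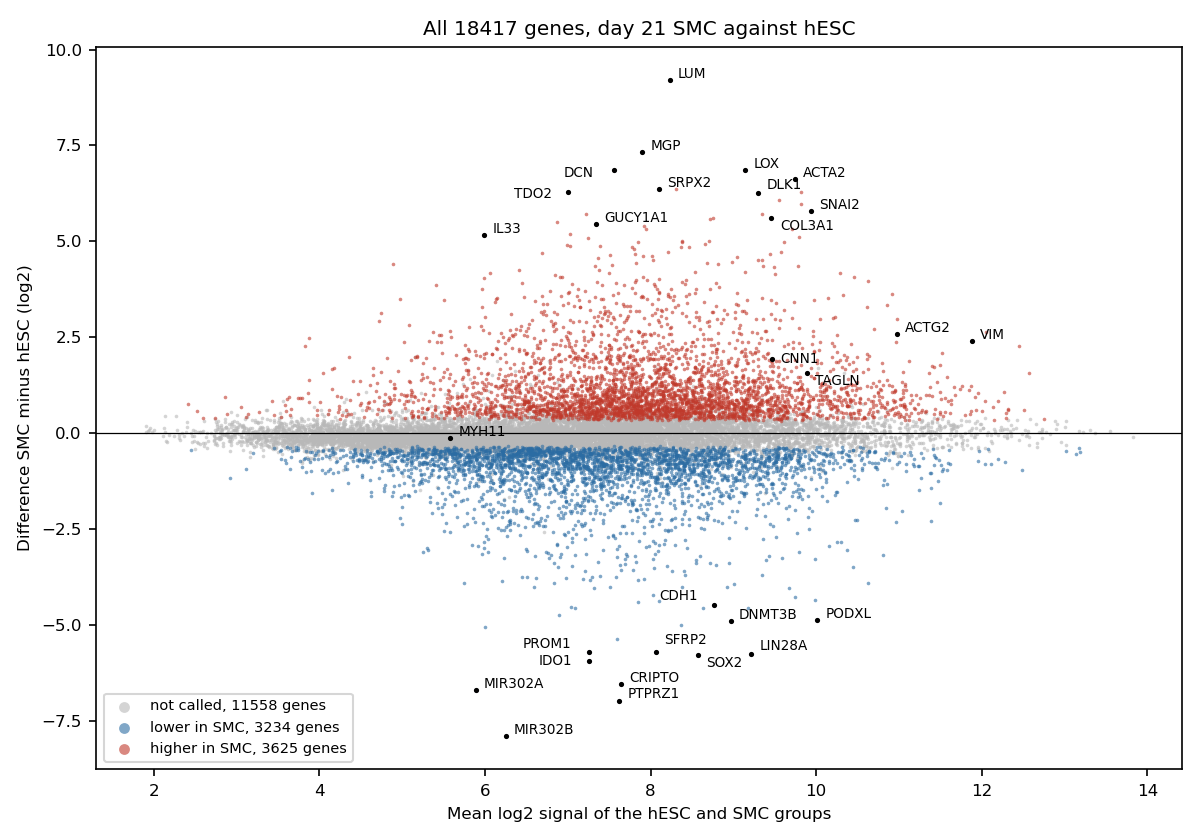
Each point is 1 of 18417 genes, with the mean log2 signal of the hESC and SMC groups on the horizontal axis and the log2 difference SMC minus hESC on the vertical axis; red and blue mark the 3625 genes called higher and the 3234 called lower. Matrix genes and ACTA2 lie at the top, with LUM at 9.21, pluripotency genes and MIR302B (-7.89) at the bottom, and MYH11 on the zero line.

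Secreted, membrane and enzyme genes were also among the 25 largest rises. CRHBP, which binds corticotropin-releasing hormone, rose 77.6-fold (log2 6.28 ± 0.14), DLK1, a membrane protein that restrains adipocyte differentiation, 76.6-fold (log2 6.26 ± 0.35) and CCDC80, a matrix protein, 39.9-fold (log2 5.32 ± 0.21). DKK1, a secreted Wnt antagonist, read 5.21 and 5.05 in the hESC arrays and 11.45 and 11.51 in the SMC arrays, a rise of 6.35 ± 0.53. IGFBP5, which binds insulin-like growth factors, rose by 5.72 ± 0.82 and HGF, hepatocyte growth factor, by 5.2 ± 0.96. The IGFBP5 arrays agreed closely in hESC (6.46 and 6.53) and in SMC (12.17 and 12.25) and differed in INM (12.79 and 9.83). SRPX2, a secreted matrix-associated protein, rose by 6.36 ± 0.26, and ST8SIA4, which adds polysialic acid, by 5.51 ± 0.15. For HGF, SRPX2 and ST8SIA4 the hESC means lay under the floor, so these sizes too start from a signal not shown above background. The 25 largest rises were picked among called genes whose hESC and SMC arrays do not overlap, so the separation of the groups in these genes was fixed by that choice. HGF lost the call without hESC 2 (adjusted p = 0.0561).

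Of 29 contractile proteins measured, 19 were called higher, 1 lower and 9 in neither direction, with a median change of 0.87 against -0.05 for all genes. The gamma actin of enteric smooth muscle, ACTG2, read 9.62 and 9.75 in the hESC arrays and 12.23 and 12.30 in the SMC arrays, a 5.98-fold rise (log2 2.58 ± 0.28, adjusted p = 0.000691). CNN1, the calponin that restrains the myosin ATPase, read 8.44 and 8.56 in the hESC arrays and 10.39 and 10.49 in the SMC arrays, which is 3.84-fold (log2 1.94 ± 0.16). TAGLN (transgelin, SM22) read 9.12 and 9.07 in the hESC arrays and 10.59 and 10.77 in the SMC arrays, a rise of 1.58 ± 0.33 (adjusted p = 0.0107). In all 3 genes the hESC arrays already read well above the floor, and the groups did not overlap (as for 75.3% of all genes). HSPB6, a small heat shock protein of relaxing muscle, rose by 3.06 ± 0.25, CSRP1, a LIM protein of smooth muscle, by 2.65 ± 0.47, FILIP1L by 2.54 ± 0.42 and SVIL (supervillin) by 1.71 ± 0.11. TPM2, the beta tropomyosin, rose by 1.69 ± 0.11, SMTN (smoothelin) by 1.0 ± 0.22, LMOD1 (leiomodin) by 1.0 ± 0.11, MYLK (the light chain kinase) by 0.87 ± 0.14, MYL9 (the regulatory light chain) by 0.85 ± 0.14 and CALD1 (caldesmon) by 0.81 ± 0.19. The remaining rises were MYH9, PDLIM7, TAGLN2, MYL6 and CNN3, from 0.51 to 1.45. After 1 array was left out, 13 to 15 of the 29 were called higher and none lower. CALD1, CNN3, SMTN and TAGLN lost their calls whichever array was left out (adjusted p = 0.0516 to 0.123). TAGLN2 lost the call without SMC 1, SMC 2 or hESC 2 (adjusted p = 0.0517 to 0.0585). MYL6 lost the call without SMC 2 or hESC 2 (adjusted p = 0.0573 to 0.0667).

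MYH11, the smooth muscle myosin heavy chain and the most specific marker of the mature lineage, was not among the genes called. It read 5.77 and 5.51 in the hESC arrays and 5.59 and 5.43 in the SMC arrays, a change of -0.13 ± 0.14 (adjusted p = 0.507), and the 2 groups overlapped a little above the floor. DES (desmin, the muscle intermediate filament) read 7.36 and 6.98 in the hESC arrays and 7.5 and 7.78 in the SMC arrays, a change of 0.47 ± 0.17 (adjusted p = 0.0771). SYNM (synemin) changed by 0.45 ± 0.16, TPM1 by 0.56 ± 0.2, SYNPO2 (synaptopodin 2) by 0.41 ± 0.3 and CNN2 by 0.11 ± 0.11, none of them called. ACTC1, the cardiac actin that early smooth muscle also uses, read 10.60 and 10.76 in the hESC arrays and 10.24 and 10.34 in the SMC arrays, a change of -0.39 ± 0.15 that was not called. TAGLN3, the neuronal transgelin, was the 1 member that fell by 0.42 ± 0.12 (-0.27 under quantile normalization). In the fit without the INM arrays 23 members were called higher and 2 lower. ACTC1, DES, SYNM, SYNPO2 and TPM1 were called without the INM arrays (adjusted p = 0.00227 to 0.0407). DES was called after median centring (0.6, adjusted p = 0.034). SYNM was called after median centring (0.58, adjusted p = 0.0285) and under quantile normalization (0.53, adjusted p = 0.0423). TPM1 was called after median centring (0.69, adjusted p = 0.0283). TAGLN3 lost the call whichever array was left out (adjusted p = 0.0623 to 0.167).

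**Figure D2:**
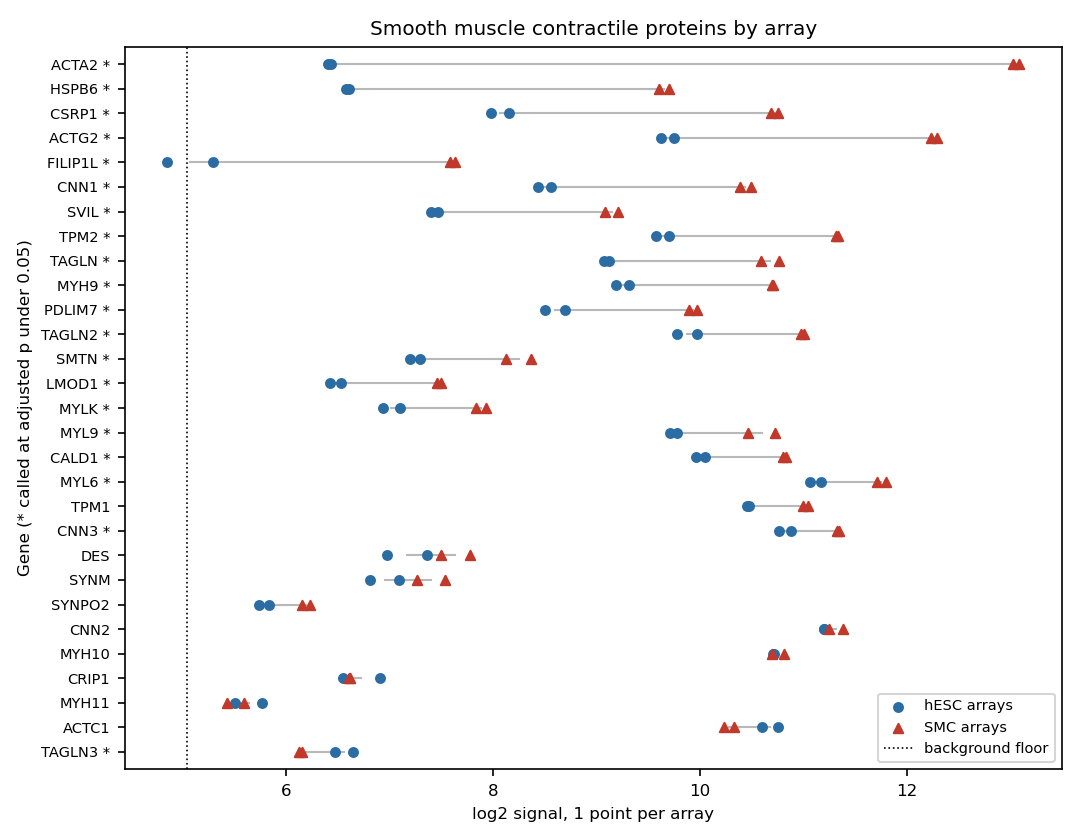
Log2 signal of the 29 measured contractile proteins, 1 point per array (blue circles hESC, red triangles SMC), ordered by their change; a line joins the group means, a dotted line marks the floor of 5.04 and an asterisk marks a called gene. ACTA2 spans the widest gap, while MYH11, CRIP1 and MYH10 show overlapping arrays.

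Serum response factor binds the CArG box, a 10-base motif of CC, 6 bases of A or T, and GG, which reads the same on both strands. In RefSeq promoter windows of the GRCh38.p14 build (250 bases before to 50 after a gene's start), 1.29% of 35116 windows held it. MYH11 and TAGLN had no window among these, so their promoters were not searched. Of 47 windows of 25 contractile genes in the table, 7 held it. They belong to ACTG2, FILIP1L, MYLK, SMTN and SVIL, which rose, and to ACTC1 and CNN2, which were not called. The stretches below are a selection: 4 of the 5 rising genes with a box (not SVIL), CNN2 as 1 of the genes with a box that were not called, and ACTA2 as the largest contractile rise. Each is in its gene's 5′ to 3′ direction, upstream of the start, with the boxes in capitals. ACTA2 had no exact box in its window, and the capitals in its stretch mark 10-base sites with 1 base other than A or T in the centre. That looser search was added after the sequences were seen, and exact or looser sites were in 8.13% of all windows and in 11 of the 47.
ACTA2 (chr10:88952810-88952919, minus strand): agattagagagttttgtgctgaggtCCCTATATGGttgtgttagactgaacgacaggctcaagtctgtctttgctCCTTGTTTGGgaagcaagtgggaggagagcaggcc
ACTG2 (chr2:73892873-73892969, plus strand): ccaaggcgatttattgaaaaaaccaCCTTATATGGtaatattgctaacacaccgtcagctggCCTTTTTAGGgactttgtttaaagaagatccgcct
SMTN (chr22:31084927-31084986, plus strand): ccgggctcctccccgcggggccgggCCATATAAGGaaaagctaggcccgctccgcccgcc
MYLK (chr3:123620608-123620667, minus strand): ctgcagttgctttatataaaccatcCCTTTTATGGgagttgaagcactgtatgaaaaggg
FILIP1L (chr3:99876199-99876258, minus strand): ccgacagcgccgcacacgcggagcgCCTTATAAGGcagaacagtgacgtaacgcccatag
CNN2 (chr19:1026494-1026553, plus strand): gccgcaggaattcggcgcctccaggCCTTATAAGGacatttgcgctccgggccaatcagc
The ACTG2 stretch held 2 exact boxes, starting 110 and 73 bases before the start. The CNN2 box is as exact as that of SMTN, while CNN2 changed by 0.11 ± 0.11 and SMTN by 1.0 ± 0.22, so the motif and the change did not go together in this pair. A match is a description of the letters and not of a bound site. ACTC1 was called without the INM arrays (adjusted p = 0.0187). SMTN lost the call whichever array was left out (adjusted p = 0.0516 to 0.0974).

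The genes of the mature contractile state were mixed: 10 of 22 were called higher and none lower, with a median of 0.44. ITGA8, the integrin alpha 8 chain of smooth muscle, read 4.29 and 4.55 in the hESC arrays and 7.87 and 7.8 in the SMC arrays, a rise of 3.42 ± 0.47 from under the floor. PLN (phospholamban, which restrains the calcium pump of the sarcoplasmic reticulum) rose by 1.59 ± 0.19, also from under the floor. MYOCD, myocardin itself, read 6.42 and 6.46 in the hESC arrays and 7.57 and 7.53 in the SMC arrays, a 2.16-fold rise (adjusted p = 0.0125). PPP1R14A (CPI-17, an inhibitor of myosin phosphatase) rose by 0.51 ± 0.15. Against these, KCNMB1 (the beta 1 subunit of the large-conductance potassium channel) changed by 0.11 ± 0.12, IRAG1 (a target of cyclic GMP-dependent kinase) by 0.05 ± 0.14 and JPH2 (junctophilin 2) by 0.28 ± 0.15, none of them called. CASQ2 and FHL5 were under the floor in both groups. In fits without 1 array, 7 of the 22 were called in each of the 4 fits. MYOCD and PPP1R14A lost their calls whichever array was left out (adjusted p = 0.0697 to 0.217).

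Of 37 genes that set smooth muscle tone, 17 rose and 4 fell, with a median of 0.42. The 2 subunits of soluble guanylate cyclase, the receptor for nitric oxide, led the rises. GUCY1A1 read 4.64 and 4.59 in the hESC arrays and 10.13 and 9.99 in the SMC arrays, a rise of 5.44 ± 0.34 from under the floor, and GUCY1B1 read 6.68 and 6.67 in the hESC arrays and 9.65 and 9.74 in the SMC arrays, 8.09-fold (log2 3.02 ± 0.18). Neither gene had overlapping arrays, a trait shared by 75.3% of all genes. PDE5A, the phosphodiesterase that breaks down cyclic GMP, went the other way: it read 8.14 and 8.09 in the hESC arrays and 5.45 and 5.62 in the SMC arrays, a 5.97-fold fall (log2 -2.58 ± 0.14). PRKG1, the cyclic GMP-dependent kinase, changed by -0.41 ± 0.15 and was not called. RGS2, RGS4 and RGS5, which shorten G protein signals, rose by 2.31, 2.86 and 1.86. PRKACA, a catalytic subunit of protein kinase A, rose by 1.5 ± 0.11. When 1 array was dropped, 9 to 12 of the 37 rose. PRKG1 was called without the INM arrays (adjusted p = 0.037). RGS4 lost the call whichever array was left out (adjusted p = 0.102 to 0.149). RGS2 lost the call without SMC 1, SMC 2 or hESC 2 (adjusted p = 0.0516 to 0.0571).

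Of 46 calcium channels, pumps, stores and related channels, 17 were called higher (37.0%, against 19.7% of all genes) and 10 lower (21.7%, against 17.6%). CACNA1C, the pore of the L-type calcium channel, read 6.24 and 6.17 in the hESC arrays and 7.07 and 7.2 in the SMC arrays, a 1.91-fold rise (log2 0.93 ± 0.11; 0.37 as the mean of all its probe sets). The plasma membrane calcium pumps ATP2B1 and ATP2B4 rose by 2.16 ± 0.25 and 2.03 ± 0.13, the chloride channel ANO1 by 2.94 ± 0.41, the potassium channel KCNQ5 by 3.18 ± 0.2 and KCNMA1, the pore of the large-conductance potassium channel, by 1.17 ± 0.12. Of the release channels of the stores, ITPR3 read 8.37 and 8.42 in the hESC arrays and 5.95 and 6.07 in the SMC arrays, a change of -2.39 ± 0.25, and ITPR2 and the ryanodine receptor RYR2 fell as well (-1.11 ± 0.15 and -1.94 ± 0.31). ITPR1, the main inositol trisphosphate receptor of smooth muscle, changed by 0.32 ± 0.11 (adjusted p = 0.0538) and was not called. TRPC4 fell by 1.92 ± 0.24. ITPR1 was called without the INM arrays (adjusted p = 0.0278). ITPR1 was called after median centring (0.46, adjusted p = 0.0152) and under quantile normalization (0.46, adjusted p = 0.0141) and with the low-signal filter (0.32, adjusted p = 0.0465).

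Of 57 receptors and ligands of vasoactive hormones, 24 were called higher (42.1%, against 19.7% of all genes), with a median of 0.24. The 10 called lower (17.5%) matched the share of all genes, 17.6%. The muscarinic receptors went opposite ways. CHRM2 read 5.23 and 5.18 in the hESC arrays and 8.28 and 8.27 in the SMC arrays, an 8.4-fold rise, and CHRM3 read 6.47 and 6.81 in the hESC arrays and 4.79 and 5.08 in the SMC arrays, a change of -1.71 ± 0.17 to around the floor. EDNRB, the endothelin B receptor, read 8.22 and 8.41 in the hESC arrays and 5.17 and 5.21 in the SMC arrays, an 8.72-fold fall. The ligand EDN1 rose by 2.24 ± 0.59 and its processing enzyme ECE1 by 2.03 ± 0.14. EDNRA, the endothelin A receptor, had no probe set of its own and was not analysed here. AGTR1, the main angiotensin II receptor, rose 1.97-fold (log2 0.98 ± 0.13) and AGTR2 was under the floor in both groups. F2RL2 and BDKRB1, receptors for thrombin and kinins, rose by 3.67 ± 0.13 and 2.79 ± 0.17, the prostaglandin receptor PTGER2 by 2.76 ± 0.26 and the histamine receptor HRH1 by 1.92 ± 0.12. The alpha 1 adrenergic receptors ADRA1B and ADRA1D were not called (0.24 and 0.18), and ADRA1A fell by 0.52 ± 0.13 (-0.33 under quantile normalization). Without 1 of the arrays, 16 or 17 of the 57 were called higher. EDN1 lost the call whichever array was left out (adjusted p = 0.103 to 0.132). ADRA1A lost the call without SMC 1, SMC 2 or hESC 1 (adjusted p = 0.0572 to 0.13).

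Transcription factors and co-factors of the smooth muscle programme rose in 30 of 56 cases and fell in 1, with a median of 0.75. PRRX1, a homeobox factor of mesenchyme, read 5.78 and 5.63 in the hESC arrays and 10.32 and 10.33 in the SMC arrays, a 24.6-fold rise (log2 4.62 ± 0.19, adjusted p = 2.43e-05). HAND2 rose by 3.49 ± 0.26, GATA4 by 3.19 ± 0.45 and TBX18 by 2.91 ± 0.16, factors of cardiac and epicardial mesenchyme, and TCF21, a factor of epicardium-derived fibroblasts, by 2.3 ± 0.39. TBX3 rose by 2.65 ± 0.14, SMAD3, a mediator of TGF-beta signals, by 2.19 ± 0.15, TWIST1 by 1.91 ± 0.12 and HEY1, a Notch target, by 1.81 ± 0.12. SRF itself read 9.78 and 9.63 in the hESC arrays and 9.82 and 9.83 in the SMC arrays, a change of 0.12 ± 0.11 (adjusted p = 0.448). Its co-activator MRTFB changed by 0.21 ± 0.12, and KLF4, which represses the contractile programme, by 0.1 ± 0.2. MRTFA, the other co-activator of this family, lies only on probe sets with several gene symbols and was not analysed here. FOXO4 was the 1 factor that fell by 0.63 ± 0.18, and HEY2 changed by -0.84 ± 0.33 without a call. With 1 array left out, 25 or 26 of the 56 were called higher and none lower. HEY2 was called without the INM arrays (adjusted p = 0.000305). FOXO4 lost the call whichever array was left out (adjusted p = 0.0644 to 0.196).

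Pericyte markers were called higher in 10 of 23 cases, with a median of 0.3. PDGFRB, the receptor that mural cells need for recruitment, read 7.37 and 7.49 in the hESC arrays and 10.48 and 10.71 in the SMC arrays, an 8.98-fold rise (log2 3.17 ± 0.14). CD248 (endosialin) rose 14.8-fold, ANGPT1 (angiopoietin 1) 9.33-fold, RGS5 3.63-fold and CSPG4 (NG2) 3.29-fold. ABCC9, the sulfonylurea receptor of pericytes, rose by 0.94 ± 0.11 from under the floor, and its channel partner KCNJ8 read 6.12 and 6.07 in the hESC arrays and 6.34 and 6.38 in the SMC arrays and was not called (0.27 ± 0.11, adjusted p = 0.0997). NOTCH3, the Notch receptor of mural cells, changed by 0.14 ± 0.16, MCAM by 0.79 ± 0.31 and COX4I2 by -0.04 ± 0.11, none of them called, and HIGD1B was under the floor in both groups. GJC1 (connexin 45) fell by 1.64 ± 0.11. Of 21 genes typical of visceral smooth muscle, 8 rose and 2 fell, and their median was 0.11. FOXF1, a factor of splanchnic mesoderm, rose by 2.02 ± 0.3, while NKX2-3 and BARX1, factors of gut mesenchyme, were not called (-0.19 and -0.21), and PRUNE2 fell by 1.8 ± 0.16. After 1 array was left out, 8 pericyte markers were called higher in each fit, and 5 or 6 of the visceral genes. MCAM was called without the INM arrays (adjusted p = 0.000375). KCNJ8 was called after median centring (0.4, adjusted p = 0.0296) and under quantile normalization (0.44, adjusted p = 0.019). CSPG4 lost the call whichever array was left out (adjusted p = 0.081 to 0.0991).

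Of 42 fibroblast markers 28 rose and 1 fell, with a median change of 2.3 against -0.05 for all genes. PDGFRA, the receptor that marks most fibroblasts, read 6.61 and 6.38 in the hESC arrays and 10.06 and 10.10 in the SMC arrays, a 12.0-fold rise (log2 3.58 ± 0.42). DDR2, a collagen receptor kinase, read 5.95 and 6.12 in the hESC arrays and 10.94 and 10.83 in the SMC arrays, a 28.9-fold rise, and COL3A1 read 6.8 and 6.5 in the hESC arrays and 12.30 and 12.24 in the SMC arrays, a 49.1-fold rise. In each of the 3 the SMC arrays agreed within 0.2 log2 units and stood over 3 units above both hESC arrays. FAP, a protease of activated fibroblasts, rose by 4.26 ± 0.39 and C7, a complement component of stromal fibroblasts, by 5.7 ± 0.23, both from under the floor. COL1A1 rose 15.5-fold, COL1A2 12.2-fold, MMP2 8.25-fold and VIM (vimentin) 5.31-fold. DPP4 (CD26) rose by 3.33 ± 0.56 and CXCL14 by 4.15 ± 0.36. In fits without 1 array, 25 of the 42 were called higher in each of the 4 fits.

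Several markers of adult tissue fibroblasts were not called. PI16 read 6.32 and 6.31 in the hESC arrays and 6.61 and 6.55 in the SMC arrays, a change of 0.27 ± 0.12, and DPT (dermatopontin) changed by 0.27 ± 0.15. MFAP5, CLEC3B, APOD, SCARA5 and S100A4 (FSP1) changed by 0.28, -0.08, -0.02, -0.33 and 0.07, and ADH1B was under the floor in both groups. THY1 (CD90), which stem cells also carry, read 10.82 and 10.88 in the hESC arrays and 11.53 and 11.70 in the SMC arrays, a 1.69-fold rise (adjusted p = 0.0316), and PDPN changed by 0.4 ± 0.25 without a call. SFRP2, a Wnt modulator that marks dermal fibroblasts and also stem cells, was the 1 member that fell: it read 10.85 and 10.98 in the hESC arrays and 4.77 and 5.66 in the SMC arrays, a change of -5.7 ± 0.28. For SFRP2 1 SMC array lay under the floor, so no fold is given. PDPN was called without the INM arrays (adjusted p = 0.0138). DPT was called under quantile normalization (0.48, adjusted p = 0.0368). PI16 was called after median centring (0.4, adjusted p = 0.0359) and under quantile normalization (0.42, adjusted p = 0.0262). THY1 lost the call whichever array was left out (adjusted p = 0.103 to 0.167).

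**Figure D3:**
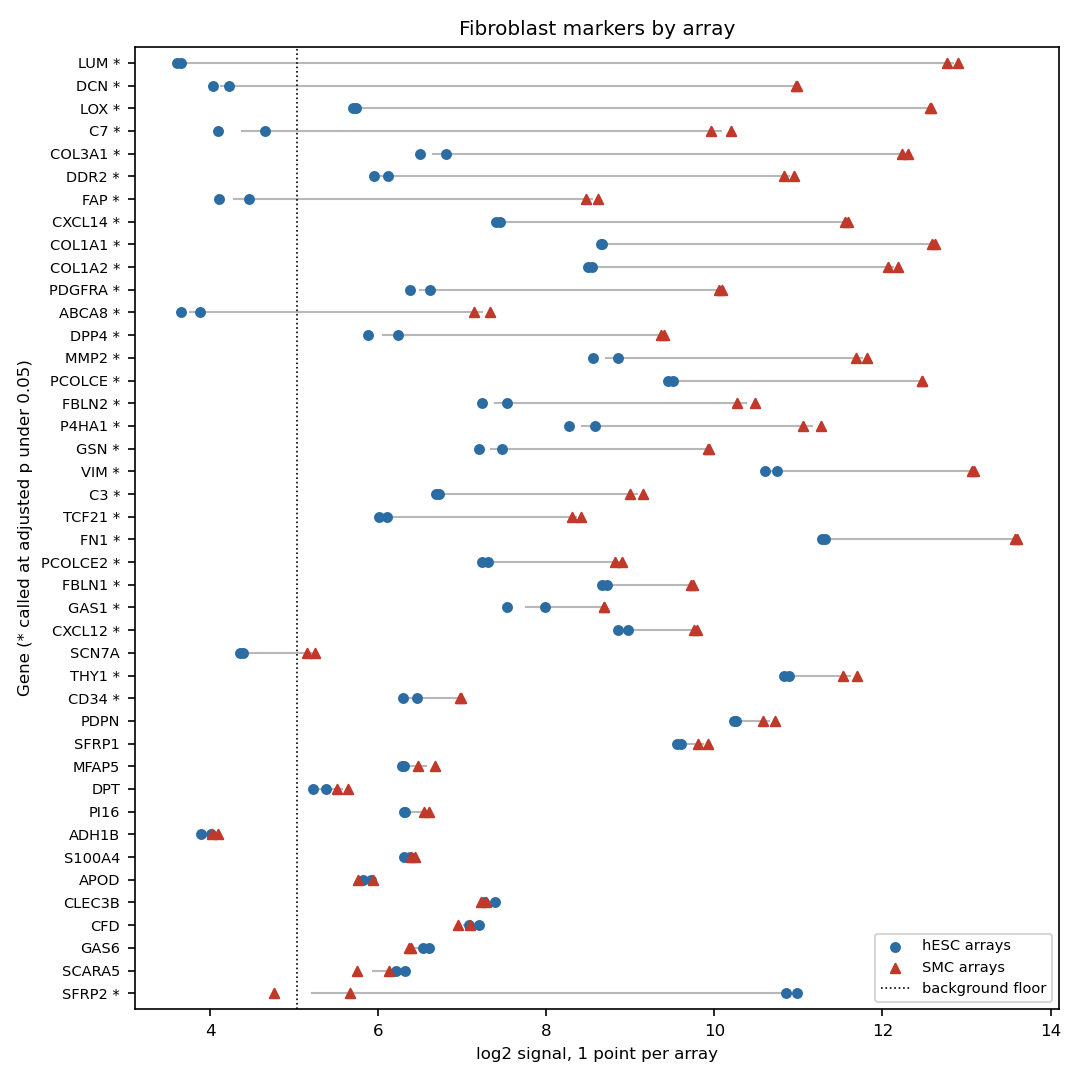
Log2 signal of the 42 measured fibroblast markers, 1 point per array (blue circles hESC, red triangles SMC), ordered by their change, with a line between group means, the floor of 5.04 dotted and called genes starred. The 28 called rises fill the upper part, PI16, DPT and S100A4, not called as reported, show small gaps, and SFRP2 at the other end is the 1 called fall.

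Markers of matrix-producing myofibroblasts rose in 27 of 35 cases and none fell, with a median of 2.19. ADAM12, a protease of activated fibroblasts, read 5.76 and 6.12 in the hESC arrays and 10.80 and 10.78 in the SMC arrays, a 28.8-fold rise (log2 4.85 ± 0.15). POSTN (periostin) read 6.02 and 5.96 in the hESC arrays and 9.66 and 9.61 in the SMC arrays, 12.5-fold (log2 3.65 ± 0.2), and CDH11, the cadherin of myofibroblasts, read 8.29 and 8.12 in the hESC arrays and 12.41 and 12.34 in the SMC arrays, 18-fold (log2 4.17 ± 0.12). The groups did not overlap in these 3 genes, which was also so for 75.3% of all genes. TGFBI, a matrix protein induced by TGF-beta, rose 62.5-fold, LOXL2 5.88-fold and LRRC15, a marker of TGF-beta-activated fibroblasts, 2.05-fold. CTHRC1 changed by 0.93 ± 0.59, COL12A1 by 1.76 ± 0.73, NOX4 by -0.61 ± 0.43 and SCX (scleraxis, a tendon factor) by -0.12 ± 0.17, none of them called. The synthetic smooth muscle list, which shares several matrix genes with these, had 27 of 37 higher and 1 lower at a median of 1.95. Its members include THBS1 (12.4-fold), CCL2 (18.5-fold), FN1 (4.88-fold) and TPM4 (2.38-fold). Its 1 fall was SPP1 (osteopontin), which read 11.63 and 11.63 in the hESC arrays and 8.69 and 8.69 in the SMC arrays, 7.68-fold lower. Mesenchymal stromal markers were called higher in 18 of 25 cases, among them NT5E (CD73) by 4.35 ± 0.7, ALCAM by 1.77 ± 0.27 and VCAM1 by 3.45 ± 0.22, and CD200 and SUSD2 fell, with changes of -2.31 ± 0.11 and -0.96 ± 0.11. When 1 array was dropped, 21 of the 35 myofibroblast markers, 22 to 24 of the 37 synthetic genes and 15 of the 25 stromal markers were called higher. COL12A1, CTHRC1 and NOX4 were called without the INM arrays (adjusted p = 5.38e-06 to 0.0128).

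Collagens and the enzymes that modify them were called higher in 25 of 37 cases and lower in 1, with a median of 1.89. COL6A3 read 6.01 and 5.83 in the hESC arrays and 11.52 and 11.50 in the SMC arrays, a 48.2-fold rise (log2 5.59 ± 0.14). COL5A1 rose by 3.35 ± 0.27, and the prolyl and lysyl hydroxylases P4HA2 and PLOD2 rose by 2.98 ± 0.15 and 3.01 ± 0.24. The 1 fall was P3H2, another prolyl hydroxylase, by -0.45 ± 0.13. Elastic fibre and microfibril genes rose in 23 of 34 cases, with a median of 1.1. MFAP4 read 6.4 and 6.63 in the hESC arrays and 12.50 and 12.68 in the SMC arrays, a 67.5-fold rise, FBN1 (fibrillin 1) read 6.47 and 6.47 in the hESC arrays and 10.91 and 10.89 in the SMC arrays, 21.5-fold, and FBLN5 (fibulin 5) rose 10.2-fold. ELN, the elastin gene of artery walls, read 8.0 and 7.75 in the hESC arrays and 7.41 and 7.59 in the SMC arrays, a change of -0.37 ± 0.13 that was not called (adjusted p = 0.0708). FBN3, a fibrillin of early development, fell by 1.53 ± 0.17. Without 1 of the arrays, 22 to 24 of the collagen list and 18 to 20 of the elastic fibre list were called higher. ELN was called without the INM arrays (adjusted p = 0.0403). P3H2 lost the call whichever array was left out (adjusted p = 0.126 to 0.165).

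Basement membrane proteins rose in 17 of 34 cases and fell in 4. NID2 (nidogen 2) rose by 4.45 ± 0.83, COL4A1 and COL4A2 10.5-fold and 8.04-fold, and COL15A1 8.79-fold. The 4 falls were FREM2, FRAS1, LAMA1 and SMOC2, by -3.47 ± 0.2, -1.64 ± 0.22, -1.49 ± 0.16 and -1.12 ± 0.24; LAMA1 is the laminin chain of the early embryo. Among proteoglycans and hyaluronan genes, 16 of 44 rose and 6 fell. HAS2, a hyaluronan synthase, read 6.84 and 6.67 in the hESC arrays and 11.33 and 11.34 in the SMC arrays, a 24.0-fold rise, and BGN (biglycan) read 7.33 and 7.31 in the hESC arrays and 11.61 and 11.71 in the SMC arrays, a 20.2-fold rise. GPC4, a glypican of stem cells, read 10.98 and 10.96 in the hESC arrays and 7.0 and 7.08 in the SMC arrays, a 15.2-fold fall. Matricellular genes rose in 24 of 37 cases, with a median of 1.86, led by SRPX2, TGFBI, TNC and MXRA5 (4.97 ± 0.21), and fell in 2, SPP1 and THBS4 (-1.31 ± 0.12). SMOC2 lost the call without SMC 1 or hESC 1 (adjusted p = 0.082 to 0.0821). NID2 lost the call without SMC 2 or hESC 1 (adjusted p = 0.0509 to 0.0521).

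Matrix proteases and inhibitors rose in 29 of 56 cases and fell in 7. PAPPA, which cleaves IGF binding proteins, rose by 5.32 ± 0.39, MMP1 (interstitial collagenase) by 4.89 ± 0.19 from under the floor, ADAMTS9 by 4.52 ± 0.24 and TIMP3, a matrix-bound inhibitor, by 4.36 ± 0.49. Of 45 integrins and focal adhesion proteins, 22 rose and 2 fell. ITGA11, the collagen-binding integrin of fibroblasts, read 6.15 and 6.24 in the hESC arrays and 11.10 and 11.16 in the SMC arrays, a 30.6-fold rise (log2 4.93 ± 0.54). ITGA5, the fibronectin-binding chain, rose 7.9-fold and PARVA 6.3-fold, and ITGB3 rose by 3.37 ± 0.23 with 1 hESC array under the floor. ITGA6 and ITGA7, which bind laminin, fell: ITGA6 read 10.19 and 10.23 in the hESC arrays and 6.98 and 6.82 in the SMC arrays, 9.93-fold lower, and ITGA7 fell by 1.45 ± 0.11. With 1 array left out, 24 to 26 of the protease list and 16 to 18 of the adhesion list were called higher.

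**Figure D4:**
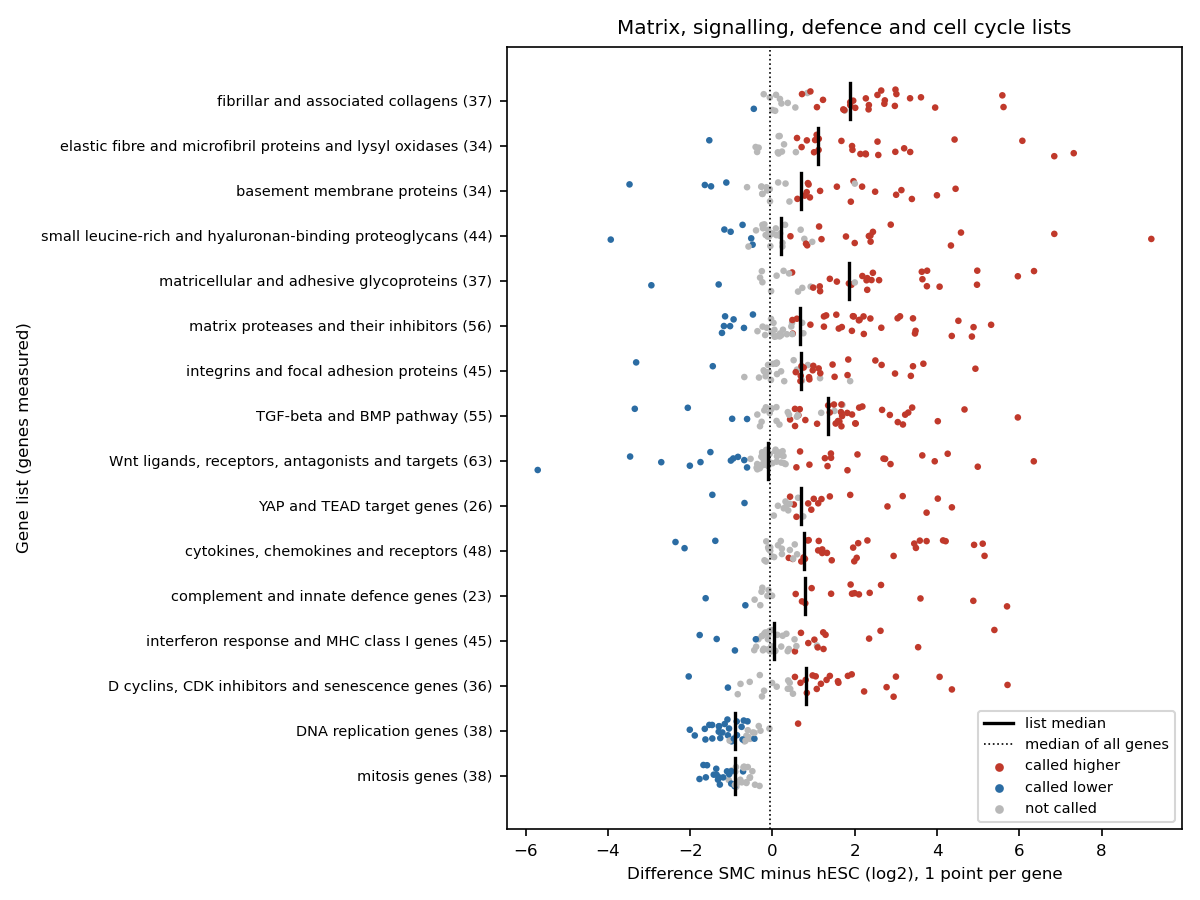
Log2 difference SMC minus hESC of every measured gene in 16 lists, 1 point per gene (red called higher, blue called lower, grey not called), with a black bar at each list's median and a dotted line at the median of all genes, -0.05. Collagen and matricellular lists have medians of 1.89 and 1.86, the TGF-beta list 1.36, and the DNA replication and mitosis lists -0.9 and -0.91.

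Of 45 factors of early, lateral and cardiac mesoderm, 17 rose and 4 fell, with a median of 0.09. TBX20, a cardiac T-box factor, read 5.76 and 6.12 in the hESC arrays and 11.57 and 11.56 in the SMC arrays, a 49.1-fold rise (log2 5.62 ± 0.34). LEF1, which carries Wnt signals to DNA, read 5.33 and 5.38 in the hESC arrays and 10.37 and 10.33 in the SMC arrays, a 31.8-fold rise, and TBX4, a factor of hindlimb and lung mesenchyme, rose 10.3-fold. ISL1, a factor of cardiac progenitors, rose by 0.95 ± 0.13. The primitive streak genes TBXT, MIXL1 and MESP1 fell, with changes of -0.42 ± 0.12, -0.51 ± 0.14 and -0.38 ± 0.11, with -0.24 for TBXT under quantile normalization and -0.25 for MESP1 after median centring. The other fall was IRX2, by -0.99 ± 0.16. NKX2-5, the early cardiac factor, changed by 0.02 ± 0.16 and was not called. Of 28 factors of paraxial and intermediate mesoderm, 4 rose (GATA3 1.23, FOXD1 0.96, WT1 0.82 and OSR1 0.78, which was 0.49 without hESC 1) and 2 fell (DLL3 -0.72 and SALL1 -0.75). After 1 array was left out, 12 lateral mesoderm factors were called higher in each fit and 1 lower. MESP1, MIXL1 and TBXT lost their calls whichever array was left out (adjusted p = 0.0864 to 0.177). DLL3 lost the call without SMC 1 (adjusted p = 0.0506). OSR1 lost the call without SMC 1, SMC 2 or hESC 1 (adjusted p = 0.08 to 0.222).

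Genes that record position along the body axis were called higher in 15 of 35 cases and lower in 1. MEIS2 and MEIS1, partners of HOX proteins, rose by 4.57 ± 0.26 and 4.12 ± 0.27. HOXD10 read 5.36 and 5.27 in the hESC arrays and 8.86 and 8.94 in the SMC arrays, a 12.0-fold rise, and HOXB9 read 6.06 and 6.19 in the hESC arrays and 9.59 and 9.79 in the SMC arrays, an 11.8-fold rise. The groups did not overlap in these 2 genes, which alone says little, because 75.3% of all genes showed the same. Of the B cluster, HOXB2, HOXB3, HOXB5, HOXB6, HOXB7, HOXB8 and HOXB13 also rose, by 0.82 to 1.83, while HOXB4 and HOXB1 were not called (0.25 and -0.36). Of the D cluster, HOXD9 and HOXD11 rose (0.45 and 1.15) and HOXD1, HOXD3, HOXD4, HOXD8, HOXD12 and HOXD13 were not called. CDX4, a caudal factor of early axis formation, fell by 1.26 ± 0.15. In fits without 1 array, 8 to 11 of the 35 were called higher. HOXB6, HOXB8 and HOXD9 lost their calls whichever array was left out (adjusted p = 0.0694 to 0.204). HOXB3 and HOXB5 lost their calls without SMC 2 or hESC 2 (adjusted p = 0.0524 to 0.0854).

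Epicardial and mesothelial markers rose in 10 of 24 cases and fell in 4, with a median of 0.23. ALDH1A2, which makes retinoic acid in the epicardium, read 5.57 and 5.82 in the hESC arrays and 8.09 and 7.97 in the SMC arrays, a 5.05-fold rise (adjusted p = 0.0143). WT1, the defining epicardial factor, read 5.97 and 5.79 in the hESC arrays and 6.74 and 6.67 in the SMC arrays, a 1.77-fold rise (log2 0.82 ± 0.13), and BNC1 rose by 1.42 ± 0.15. TBX5 and MSLN (mesothelin) were not called (0.12 and -0.09), ITLN1 was under the floor in both groups, and UPK1B fell by 0.71 ± 0.11. Cartilage and bone markers were called higher in 10 of 37 cases and lower in 6: SOX5, SOX6, SOX9 and RUNX2 rose by 2.9, 1.93, 1.05 and 1.95, whereas COL2A1, ACAN, SP7 and IBSP, the products and regulators of finished cartilage and bone, were not called (0.09, -0.11, -0.42 and -0.15). ALPL (tissue-nonspecific alkaline phosphatase), which stem cells carry, fell 16.0-fold. Adipocyte markers rose in 8 of 23 cases, with PPARG at 1.18 ± 0.22. ADIPOQ (adiponectin) and LPL (lipoprotein lipase), products of mature fat cells, were not called (-0.25 and -1.67 ± 1.19). FABP4 was called at 0.47 although both its group means lay under the floor. LPL was called without the INM arrays (adjusted p = 5.76e-05). SP7 was called without hESC 2 (-0.81, adjusted p = 0.0245). ALDH1A2, FABP4 and SOX9 lost their calls whichever array was left out (adjusted p = 0.0654 to 0.184). PPARG lost the call without SMC 1 or hESC 2 (adjusted p = 0.0581 to 0.0595).

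Genes of the epithelial to mesenchymal transition rose in 20 of 25 cases and none fell, with a median of 2.29. SNAI2 (Slug) read 6.95 and 7.12 in the hESC arrays and 12.83 and 12.83 in the SMC arrays, a 55.5-fold rise (log2 5.79 ± 0.13), ZEB2 read 5.59 and 5.59 in the hESC arrays and 10.19 and 10.25 in the SMC arrays, 24.7-fold, and ZEB1 read 5.18 and 5.52 in the hESC arrays and 9.75 and 9.7 in the SMC arrays, 20.7-fold. These repressors of E-cadherin were separated by over 4 log2 units between the groups. SNAI1, another of them, changed by 0.43 ± 0.16 (adjusted p = 0.0792). Epithelial markers went down in 27 of 43 cases and up in 3, with a median of -0.82. CDH1 (E-cadherin) read 10.96 and 11.02 in the hESC arrays and 6.51 and 6.55 in the SMC arrays, a 22.1-fold fall, and EPCAM read 10.85 and 10.95 in the hESC arrays and 6.41 and 6.3 in the SMC arrays, a 23.3-fold fall. CLDN7, CLDN6 and MAL2 fell, with changes of -4.01 ± 0.12, -3.91 ± 0.13 and -4.35 ± 0.17. The 3 rises were the simple keratins KRT8 and KRT18, which form 1 filament pair, and JUP (plakoglobin): KRT8 read 10.94 and 10.75 in the hESC arrays and 12.27 and 12.33 in the SMC arrays, 2.74-fold, and KRT18 read 10.22 and 10.17 in the hESC arrays and 11.25 and 11.43 in the SMC arrays, 2.22-fold, while KRT19 was not called (-0.57 ± 0.3). When 1 array was dropped, 17 or 18 transition genes were called higher, and 20 or 21 epithelial markers lower. KRT19 and SNAI1 were called without the INM arrays (adjusted p = 0.00233 to 0.0238). SNAI1 was called after median centring (0.57, adjusted p = 0.029). JUP lost the call whichever array was left out (adjusted p = 0.0644 to 0.123).

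**Figure D5:**
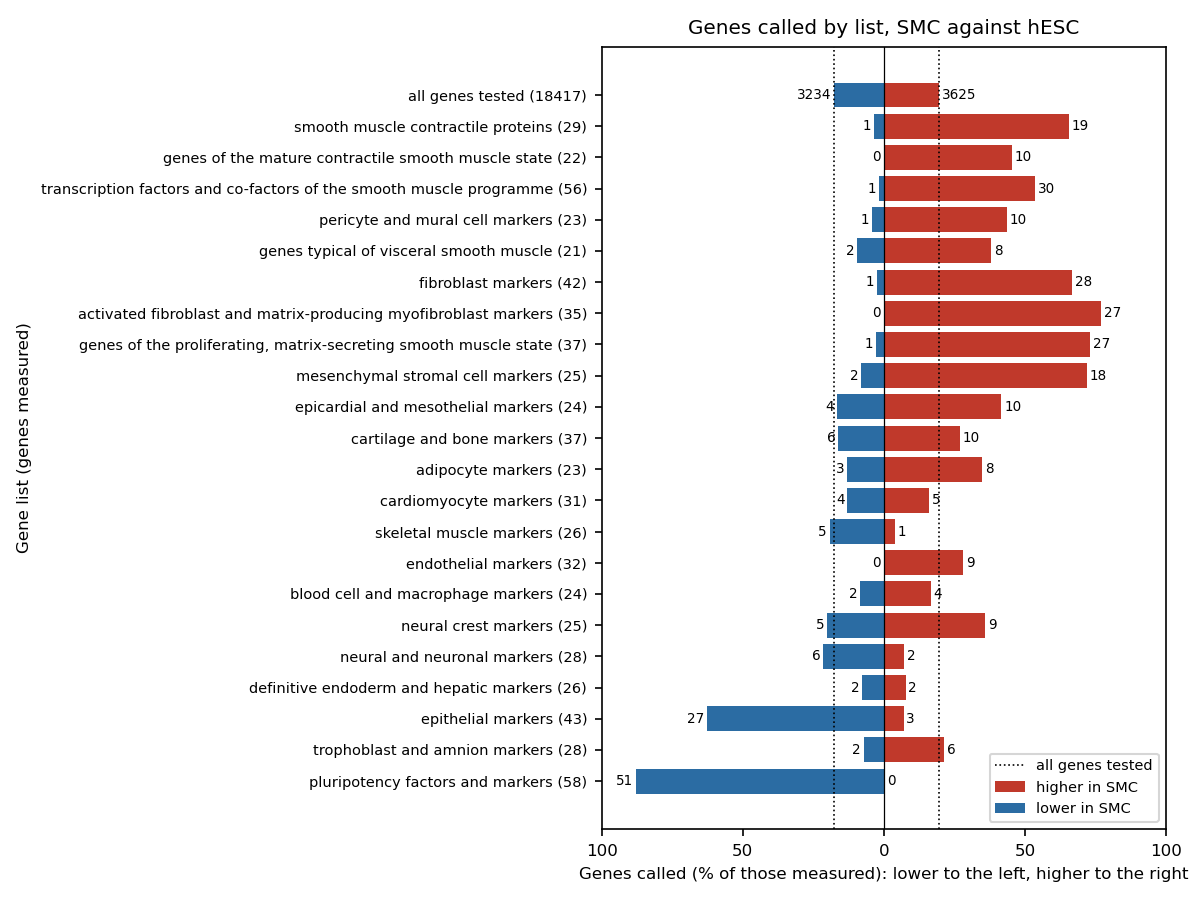
Share of measured genes called higher (red, to the right) or lower (blue, to the left) in SMC for 22 lists and for all 18417 genes, with the number of genes beside each bar and dotted lines at the shares of all genes, 19.7% and 17.6%. The myofibroblast list has 27 of 35 higher, the pluripotency list 51 of 58 lower, and cardiomyocyte, endoderm and blood lists lie near or under the dotted lines.

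Markers of other cell types that such a culture could hold were read as whole lists. Of 31 cardiomyocyte markers 5 rose and 4 fell, and MYH6, MYH7, MYL7 and NPPA were not called (0.11, -0.07, -0.05 and 0.18); the rises were ANKRD1, PLN, MYL3, HSPB7 and MYOZ2. Of 26 skeletal muscle markers 1 rose (DMD, 1.14 ± 0.31) and 5 fell. Endothelial markers rose in 9 of 32 cases and none fell, with a median of 0.2. PECAM1 (CD31) read 5.41 and 5.2 in the hESC arrays and 6.88 and 6.57 in the SMC arrays, a 2.69-fold rise (log2 1.43, or 0.61 as the mean of its probe sets), CDH5 (VE-cadherin) read 6.0 and 5.87 in the hESC arrays and 6.77 and 7.01 in the SMC arrays, 1.93-fold, and FLI1 rose by 3.11 ± 0.25 from under the floor. VWF, TIE1, ROBO4, CLDN5 and KDR, which also define endothelium, were not called (-0.08, 0.07, -0.03, -0.08 and 0.01). The mean log2 signal of the list was 6.3 and 6.2 in the hESC arrays and 6.83 and 6.82 in the SMC arrays. No array signal is a true 0, and 3 of the 32 were under the floor in both groups. The part of other cells in the 9 rises was not tested. Without 1 of the arrays, 5 of the 32 endothelial markers were called higher in each fit. CDH5, DMD and MYOZ2 lost their calls whichever array was left out (adjusted p = 0.0623 to 0.241).

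Blood markers rose in 4 of 24 cases (CD68, RUNX1, GATA2 and CD34) and fell in 2, with PTPRC (CD45) and LYZ under the floor in both groups. Neural markers rose in 2 of 28 (NCAM1 1.98 and GAP43 1.21) and fell in 6, with PAX6 under the floor in both groups. Neural crest markers rose in 9 of 25 cases and fell in 5. MSX2 rose by 3.5 ± 0.14 and TFAP2A by 2.65 ± 0.37, factors that lateral mesoderm, limb and amnion also use, while SOX10 and PAX3 were not called (-0.22 and -0.22). Endoderm markers rose in 2 of 26 and fell in 2. Trophoblast and amnion markers rose in 6 of 28 (IGFBP3, TFAP2A, GATA3, HAND1, ISL1 and GATA2) and fell in 2, and CYP19A1, GCM1 and INSL4 were under the floor in both groups. The medians of the skeletal muscle, blood, neural, trophoblast, bone and paraxial lists lay between -0.13 and -0.02, within the shift that centring makes, and each turned to between 0.03 and 0.14 under quantile normalization, so no direction is read from them. PTPRC was called without the INM arrays (adjusted p = 0.0111). PTPRC was called after median centring (0.57, adjusted p = 0.0321) and under quantile normalization (0.55, adjusted p = 0.03). CD34, GAP43 and RUNX1 lost their calls whichever array was left out (adjusted p = 0.077 to 0.207).

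TGF-beta and BMP genes were called higher in 33 of 55 cases and lower in 4, with a median of 1.36. TGFB1 read 6.84 and 6.97 in the hESC arrays and 9.89 and 10.01 in the SMC arrays, an 8.27-fold rise (log2 3.05 ± 0.14), TGFB2 read 6.04 and 6.15 in the hESC arrays and 10.13 and 10.09 in the SMC arrays, 16.2-fold, and TGFB3 rose 4.32-fold. All 3 ligands therefore rose together with the receptors TGFBR1 and TGFBR2, 3.53-fold and 3.09-fold. GREM1, a secreted BMP antagonist, read 7.09 and 7.11 in the hESC arrays and 11.71 and 11.83 in the SMC arrays, a 25.5-fold rise, and BAMBI, a decoy receptor, rose 9.87-fold. The antagonist CHRDL1 fell by 3.35 ± 0.15, and the activin receptor ACVR2B, SKIL and ID1 fell, with changes of -2.06 ± 0.22, -0.98 ± 0.28 and -0.62 ± 0.17. In YAP and TEAD targets 15 of 26 rose and 2 fell, with ANKRD1 6.95-fold, MYOF 13.4-fold and CCN2 (connective tissue growth factor) 2.63-fold higher. PTPN14 and TEAD4 fell, with changes of -0.68 ± 0.11 and -1.46 ± 0.17. With 1 array left out, 20 to 22 of the TGF-beta list and 9 to 11 of the YAP list were called higher. CCN2, ID1 and SKIL lost their calls whichever array was left out (adjusted p = 0.087 to 0.174).

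Of 63 Wnt genes, 17 were called higher (27.0%, against 19.7% of all genes) and 11 lower (17.5%, against 17.6%). Their median of -0.1 turned to 0.03 after median centring. Besides DKK1 and LEF1, RSPO2, which amplifies Wnt signals, rose by 4.26 ± 0.82 and WLS, which carries Wnt ligands to the surface, read 6.36 and 6.45 in the hESC arrays and 10.42 and 10.29 in the SMC arrays, a 15.4-fold rise. FZD5 and FZD7, receptors of stem cells, fell, with changes of -3.46 ± 0.18 and -2.7 ± 0.11. The growth factor list had 20 of 47 higher (42.6%) and 10 lower (21.3%). IGFBP3 read 6.88 and 7.47 in the hESC arrays and 11.54 and 11.53 in the SMC arrays, a 20.6-fold rise, and IGFBP7 rose 16.7-fold. MET, the receptor of HGF, went opposite to its ligand: it read 8.2 and 8.36 in the hESC arrays and 5.98 and 5.81 in the SMC arrays, a 5.22-fold fall. Among 25 Notch genes 6 rose (24.0%) and 3 fell (12.0%), the falls below the share of all genes. HES1, a Notch target, rose 4.36-fold, and DLL3, NRARP and RBPJ fell, with changes of -0.72 ± 0.12, -0.79 ± 0.14 and -0.82 ± 0.11. After 1 array was left out, 7 to 9 of the Wnt list were called higher. DLL3 lost the call without SMC 1 (adjusted p = 0.0506). RSPO2 lost the call without SMC 1, SMC 2 or hESC 2 (adjusted p = 0.0504 to 0.0595). NRARP lost the call without SMC 2 or hESC 1 (adjusted p = 0.0524 to 0.0583). HGF lost the call without hESC 2 (adjusted p = 0.0561).

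Complement genes, part of innate defence, rose in 14 of 23 cases and fell in 2, with a median of 0.8. PTX3, a soluble pattern recognition protein, read 4.67 and 4.51 in the hESC arrays and 9.39 and 9.56 in the SMC arrays, a rise of 4.88 ± 0.12 from under the floor, C3 rose 5.15-fold and C1S 6.24-fold. Of 48 cytokine and chemokine genes 28 rose and 3 fell, with a median of 0.77. IL33, an alarmin of stromal nuclei, read 3.47 and 3.36 in the hESC arrays and 8.64 and 8.5 in the SMC arrays, a rise of 5.16 ± 0.17 from under the floor. IL6ST (gp130) read 7.14 and 7.33 in the hESC arrays and 12.45 and 12.24 in the SMC arrays, a 34.6-fold rise, CCL2 read 6.99 and 7.08 in the hESC arrays and 11.10 and 11.39 in the SMC arrays, 18.5-fold, and IL1R1 rose by 4.9 ± 0.24. The 3 falls were PTGIS (prostacyclin synthase), CCL26 and CXCL5, by -2.36 ± 0.18, -2.14 ± 0.18 and -1.39 ± 0.12. Interferon and antigen presentation genes rose in 12 of 45 cases (26.7%, against 19.7% of all genes) and fell in 4, with a median of only 0.05. IFI16, a nuclear DNA sensor, read 5.06 and 5.39 in the hESC arrays and 10.66 and 10.58 in the SMC arrays, a 42.1-fold rise, and B2M, the light chain of MHC class I, read 7.53 and 7.85 in the hESC arrays and 10.28 and 10.35 in the SMC arrays, a 6.18-fold rise. In fits without 1 array, 9 or 10 complement, 20 or 21 cytokine and 8 or 9 interferon genes were called higher.

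Genes of DNA replication and of mitosis were lower at day 21. Of 38 DNA replication genes 25 fell and 1 (CCNE2, 0.63 ± 0.15) rose, with a median of -0.9. MCM6, a subunit of the replicative helicase, read 9.56 and 9.61 in the hESC arrays and 7.68 and 7.72 in the SMC arrays, a 3.7-fold fall, ORC1, of the origin recognition complex, fell 4.02-fold and PRIM1 (primase) 3.12-fold. Of 38 mitosis genes 17 fell and none rose, with a median of -0.91. CDC25A, a phosphatase that starts division, read 8.17 and 8.1 in the hESC arrays and 6.41 and 6.32 in the SMC arrays, a 3.41-fold fall, and CENPF fell 3.2-fold. The fit without the INM arrays called 35 replication and all 38 mitosis genes lower, more than 1.5 times the 17 above, while leaving out any 1 of the 4 arrays left 7 to 10 and 2 or 3. CCNE2 and PRIM1 lost their calls whichever array was left out (adjusted p = 0.0556 to 0.115).

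A list of D cyclins, cell cycle inhibitors and genes linked to senescence had 21 of 36 higher and 2 lower. CDKN2A (p16 and ARF) read 7.38 and 7.66 in the hESC arrays and 10.58 and 10.46 in the SMC arrays, an 8.02-fold rise (log2 3.0 ± 0.64, adjusted p = 0.011). CDKN2B (p15) read 6.88 and 6.83 in the hESC arrays and 9.65 and 9.61 in the SMC arrays, a 6.85-fold rise (adjusted p = 0.0126). Both arrays of SMC were above both of hESC in each, while arrays of the groups did not overlap for 75.3% of all genes. The SEs of over 0.6 rest on spread pooled with the INM arrays, while the 2 arrays of hESC and of SMC lay close together for CDKN2B. LMNA (lamin A/C) read 6.96 and 6.93 in the hESC arrays and 9.13 and 9.22 in the SMC arrays, a 4.69-fold rise, and LMNB1 (lamin B1) fell by 1.08 ± 0.3. HMGA1, a chromatin protein of proliferating stem cells, fell by 2.03 ± 0.23. When 1 array was dropped, 14 to 17 of the 36 were called higher. CDKN2A, CDKN2B and LMNB1 lost their calls whichever array was left out (adjusted p = 0.0605 to 0.136).

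The pluripotency list was lower in 51 of 58 cases and higher in none, with a median of -2.28. SOX2 read 11.44 and 11.47 in the hESC arrays and 5.76 and 5.61 in the SMC arrays, a 54.4-fold fall (log2 -5.77 ± 0.12, adjusted p = 9.17e-06). LIN28A, which blocks let-7 maturation, read 12.10 and 12.08 in the hESC arrays and 6.46 and 6.21 in the SMC arrays, a 53.8-fold fall, and DNMT3B, the de novo DNA methyltransferase of stem cells, read 11.36 and 11.46 in the hESC arrays and 6.53 and 6.53 in the SMC arrays, a 29.5-fold fall. CRIPTO (a co-receptor of NODAL), PTPRZ1 (a receptor phosphatase), L1TD1 and USP44 fell to under the floor, with changes of -6.53 ± 0.29, -6.96 ± 0.3, -5.05 ± 0.2 and -5.37 ± 0.16. PODXL, the carrier of the TRA-1 epitopes, fell 29.1-fold. POU5F1 and NANOG lie only on probe sets with several gene symbols and were not analysed here. The 7 members not called were KLF4, ESRRB, DNMT3L, FGF4, DPPA5, UTF1 and ETV4. CRIPTO has a near-identical copy, CRIPTO3, whose probe set fell by 4.4 ± 0.23, so the 2 may share signal. Of 30 genes that set naive apart from primed pluripotency 17 fell and 3 rose. Without 1 of the arrays, 46 to 48 of the 58 were called lower. ETV4 was called without the INM arrays (adjusted p = 0.003).

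MicroRNA genes held the largest fall of all. Of 173 measured, 11 rose, 30 fell and 132 were not called. The called share was 23.7%, against 37.2% of all genes. In both groups 89 were under the floor, and 10 of these were called. Only 13 of the calls had a change over 1 log2 unit. The array reads the precursor or its host transcript and not the mature strand. MIR302B read 10.09 and 10.31 in the hESC arrays and 2.51 and 2.1 in the SMC arrays, a change of -7.89 ± 0.47, and MIR302A read 9.1 and 9.36 in the hESC arrays and 2.38 and 2.71 in the SMC arrays, a change of -6.68 ± 0.24, both to under the floor. These genes of the stem cell cluster on chromosome 4 yield 3p strands with 1 shared seed, bases 2 to 8, shown in capitals from RefSeq (GRCh38.p14; 164 of the 173 genes matched its table).
miR-302a-3p (chr4:112648186-112648208, minus strand): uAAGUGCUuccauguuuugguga
miR-302b-3p (chr4:112648489-112648511, minus strand): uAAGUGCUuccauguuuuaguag
Rises were led by MIR181B1, which read 4.78 and 5.01 in the hESC arrays and 9.02 and 8.91 in the SMC arrays, a rise of 4.07 ± 0.31, followed by MIRLET7A2 (2.78 ± 0.2), both from under the floor, MIR218-1 (2.49 ± 0.16, 1 hESC array under the floor) and MIR21 (4.88-fold, adjusted p = 0.0261). MIR181B2 and MIR181A2, which share the seed of MIR181B1, rose as well, by 1.12 and 0.98. The let-7 seed was split: MIRLET7A2 rose, while MIRLET7F1, MIRLET7G and MIRLET7I, with the same seed, fell, with changes of -1.58 ± 0.23, -1.05 ± 0.25 and -0.58 ± 0.14.
miR-181b-5p (chr1:198858925-198858947, minus strand): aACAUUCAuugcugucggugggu
let-7a-5p (chr11:122146568-122146589, minus strand): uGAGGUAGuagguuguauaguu
let-7f-5p (chr9:94176353-94176374, plus strand): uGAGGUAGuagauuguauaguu
miR-218-5p (chr4:20528299-20528319, plus strand): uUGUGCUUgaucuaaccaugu
miR-21-5p (chr17:59841273-59841294, plus strand): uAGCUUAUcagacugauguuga
The let-7a and let-7f strands are printed together because they share all 7 capital bases while their genes moved in opposite directions. MIR21 and MIRLET7G lost their calls whichever array was left out (adjusted p = 0.0541 to 0.128). MIR181A2 and MIRLET7I lost their calls without SMC 2, hESC 1 or hESC 2 (adjusted p = 0.052 to 0.116).

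Of 62 chromatin regulators, 14 were called higher (22.6%, against 19.7% of all genes) and 18 lower (29.0%, against 17.6%). JARID2, a Polycomb cofactor of stem cells, read 11.07 and 11.07 in the hESC arrays and 8.47 and 8.46 in the SMC arrays, a 6.09-fold fall, and PHC1, another Polycomb protein, fell by 2.83 ± 0.14. HELLS, a remodeller that aids DNA methylation, fell by 2.91 ± 0.29. TET1 fell by 1.56 ± 0.21 and TET2, from the same family of DNA demethylases, read 6.33 and 6.18 in the hESC arrays and 8.44 and 8.6 in the SMC arrays, a 4.82-fold rise. In tryptophan use, IDO1 read 10.21 and 10.23 in the hESC arrays and 4.42 and 4.16 in the SMC arrays, a change of -5.93 ± 0.14 to under the floor, and TDO2, which catalyses the same step, read 4.1 and 3.6 in the hESC arrays and 10.22 and 10.08 in the SMC arrays, a rise of 6.3 ± 0.24 from under it. Each gene was high in 1 group and near background in the other. Amino acid and one-carbon genes rose in 10 of 35 cases and fell in 14, among them the transporter SLC7A3 (23.5-fold lower) and GLDC (glycine decarboxylase, 13.0-fold lower). Glycolysis genes rose in 8 of 28 (28.6%) and fell in 5 (17.9%), the falls near the share of all genes. Respiratory chain genes rose in 7 of 47 and fell in 4, below the share of all genes in both directions. With 1 array left out, 2 to 6 glycolysis genes and 0 to 2 respiratory chain genes were called higher.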

How the data were processed

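The deposited table holds log2 signals of 33297 probe sets from an Affymetrix array read once per sample; the authors normalized it by RMA, which background-corrects, quantile-normalizes and summarises probes, and named limma, per the submitters' processing notes. Software versions were not stated. Probe sets were named through GEO's platform annotation: 19460 carried 1 gene symbol, 1754 several and 12083 none. For each of 18417 genes 1 probe set was used, that of highest mean signal over all 6 arrays (769 genes had several). limma 3.58.1 (R 4.3.3) fitted means of 3 groups on all 6 arrays, so that the groups share 1 estimate of spread (3 residual and 3.56 prior degrees of freedom), and tested SMC minus hESC, two-sided, at a Benjamini-Hochberg adjusted p under 0.05. The code was tested on simulated data. The number of arrays limits the precision.

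The members and gene lists were chosen with earlier results of these data known, so counts over a list are descriptions. Genes were named from the identity, other cell type, start state and lineage lists. They were also named from the 6 called members with the largest change of each other list (with those behind counts of up to 5). Others came from the 25 largest rises and falls, and from genes with probe sets called in opposite directions. The 25 were taken among called genes whose hESC and SMC arrays do not overlap and whose higher group mean is above the floor. A few others named for their role were chosen after their values were seen. The CArG box was searched on both strands of RefSeq promoter windows. Alternatives were median centring, quantile normalization, a low-signal filter, the mean of a gene's probe sets, a trend and robust prior, a test against 1 log2 unit, the replicate block, the 4 arrays alone and each array left out.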

Additional observations from a re-analysis of the deposited data

How the results depend on the processing

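With any 1 of the 4 arrays left out, 2154 to 2485 genes were called higher and 1649 to 1844 lower, against 3625 and 3234 as reported; these fits have fewer arrays. Tested against a change of 1 log2 unit in place of 0, 701 were higher and 398 lower. The replicate block gave 3441 higher and 2988 lower, and 6285 of the 6859 calls held in it; the replicate numbers share no stated origin, and the deviations of same-numbered hESC and SMC arrays correlated at -0.119. A crossed pairing, added after the data were seen, gave 3607 and 3274. Without the INM arrays 4627 were higher and 4573 lower. Quantile normalization gave 4062 and 2903, 58.3% of calls being rises, the low-signal filter 3631 and 3199 of 16311 genes, the mean of probe sets 3603 and 3238, and the trend and robust prior 3637 and 3227. Under quantile normalization the median of the bone and cartilage list turned to 0.14, of skeletal muscle to 0.03, of blood to 0.1, of neural markers to 0.12, of trophoblast and amnion to 0.06 and of paraxial mesoderm to 0.08; the cause was not tested. Leaving aside the 5 genes with probe sets called in opposite directions, no called gene named in the text changed direction in any of these fits. Of those 5, PDPK1, PHC3 and PIGT rose on the probe set used, while the mean of their probe sets had a negative change. For PDPK1 that mean was close to no change, its probe sets differing by 0.72, 0.55, -0.67 and -0.67. Genes under the floor of 5.04 in both groups, 2106 in all, carry the least reliable changes.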

Other observations

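Small nucleolar RNAs, which guide chemical modification of ribosomal RNA, were lower as a class: 96 of 175 fell and 10 rose, with a median change of -0.63 against -0.05 for all genes. Genes for ribosomal proteins showed no such pattern, with 2 of 64 higher, 3 lower and a median of -0.03. Replication-dependent histone genes fell in 19 of 73 cases and rose in 2, with a median of -0.37, in the same direction as the DNA replication genes. Zinc finger genes named ZNF were lower in 142 of 480 cases and higher in 59. Of 23 claudins 8 fell and 1 rose. Among annexins, calcium-dependent membrane proteins, 5 of 11 rose and 2 fell. Olfactory receptor genes, of which 224 of 361 were under the floor in both groups, rose in 3 cases and fell in 34. The unnamed probe sets had a median change of -0.17.

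In 5 genes, ABHD17A, BMP1, PDPK1, PHC3 and PIGT, probe sets of the same gene were called in opposite directions. BMP1, a procollagen-cleaving protease, rose by 2.01 on the probe set used and changed by -0.37 on its other probe set. PHC3, a Polycomb protein, rose by 0.71 on the probe set used and changed by -1.26 on the other. Neither probe set was chosen by its change, and which transcripts each one reads was not examined here.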
